A study of Homo sapiens with 4 samples.

Results

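LIN28A, LIN28B, IGF2BP1, IGF2BP2, IGF2BP3, HMGA1, HMGA2 and AFP are 8 oncofetal genes, highly active in the embryo, low or silent in many adult tissues and expressed again in many tumors. They were picked by name, and the 4 libraries list 31907 gene names between them. Of these 8 genes, 6 had a listed count in at least 1 library and 5 passed the filter on low counts, which kept 16361 genes for testing. LIN28A and LIN28B are RNA-binding proteins that block the maturation of let-7 microRNAs (miRNAs), which in turn repress mRNAs carrying a match to their seed. The IGF2BP proteins bind mRNAs, many of them marked with N6-methyladenosine (m6A), and prolong their life or steer their translation. HMGA1 and HMGA2 are AT-hook proteins that bend DNA and loosen chromatin, and AFP (alpha-fetoprotein) is the serum carrier protein of the fetal liver and yolk sac, used as a tumor marker.

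RNA was sequenced from HGC-27 cells, a human gastric cancer (GC) line, treated for 48 h with PBS (2 libraries) or with 200 ng/ml recombinant IL-17B (rIL-17B, 2 libraries). IL-17B is a cytokine that signals through the receptor IL-17RB, and the study asked what it does to GC cells with stem-like properties. The labels name no transgene or knockdown in either group and do not say whether the replicates were separate cultures, and every p-value measures the spread between these samples, which may be technical. The library protocol in the labels mentions monocytes, whereas the sample labels name HGC-27.

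The libraries held between 12888029 and 17555879 counts, and 3 counts corresponded to between 0.171 and 0.233 CPM (the count scaled by the library total), taken here as the detection floor. rIL-17B replicate 1 stood apart from the other libraries. The SD of the log2 difference over all tested genes was between 1.201 and 1.36 in pairs with this library and between 0.273 and 0.334 in the other pairs. Fibroblast, neural and endothelial marker sums were far lower in this library, and the epithelial sum was higher. The 9 fibroblast and mesenchyme markers summed to 52529 and 51402 CPM with PBS and to 980 and 43916 CPM in rIL-17B replicates 1 and 2, and 9 of 9 were lower in each rIL-17B library than in either PBS library. The 11 epithelial markers, with TFF1 at 0 in all libraries, summed to 779.9 and 788 CPM against 1821 and 1003 CPM. Of the 6 tested ones, 3 had a log2 fold change above 0 and 3 below, and most of the sum was the keratin genes KRT8 and KRT18, while KRT19 had 2.96 and 3.34 CPM against 0.0684 and 3.30 CPM. The 8 neural markers, with SOX10 at 0, summed to 417 and 621 CPM against 59.7 and 312 CPM. The 5 endothelial markers summed to 27.5 and 35.5 CPM against 1.09 and 22.6 CPM, and the 7 monocyte and macrophage markers to between 8.55 and 10.4 CPM in every library. Of the 4 tested ones of the latter, 1 was above 0 and 3 below, with PTPRC at 0 and CSF1R at 8.14 CPM in rIL-17B replicate 1 against 2.96 and 1.71 CPM and 3.90 and 5.59 CPM with PBS. The part of these markers in the results was not tested, and the tests of the oncofetal genes and the medians of the gene lists are also given without rIL-17B replicate 1. In bulk RNA, fewer cells of a type and less RNA per cell cannot be told apart. Whether rIL-17B replicate 1 held the same material as the other libraries was not tested.

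Because let-7 links LIN28 to most of the other genes, the let-7 seed and its matches are shown first. The 9 mature 5p forms of let-7a to let-7g, let-7i and miR-98 in RefSeq (GRCh38.p14) share 1 seed, bases 2 to 8, in capitals in the following sequences. They are forms whose host transcripts were tested.
let-7a: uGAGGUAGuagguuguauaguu
let-7b: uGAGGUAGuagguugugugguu
let-7c: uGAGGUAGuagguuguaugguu
let-7g: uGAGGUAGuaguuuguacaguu
miR-98: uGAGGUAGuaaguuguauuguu

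The letters searched were CTACCTC, the reverse complement of this seed in DNA letters, on the transcript strand only, in the 3′ untranslated region (UTR) of 1 GENCODE 29 coding transcript per gene. This 7-letter match contains the 6-letter match TACCTC and lies within the 8-letter match CTACCTCA, which adds an A after the site. At least 1 match was present in 7 of the 8 genes, with AFP (554 UTR bases) as the exception. LIN28B (4549 bases), IGF2BP1 (6206 bases) and HMGA2 (3003 bases) each held 4 matches, and LIN28A (3264 bases), IGF2BP2 (1792 bases), IGF2BP3 (2153 bases) and HMGA1 (1347 bases) each held 1. Of the 13364 tested genes with a 3′ UTR in the reference, 9.91% held at least 1 match and 0.0673% (9 genes) held 4 or more, with a median UTR of 1123 bases, shorter than the UTRs of all these genes but AFP. The first match of each gene is shown as 30 bases of the UTR with the 7 letters in capitals, each on its own line and within 1 exon.
LIN28A, chr1:26427349-26427378, plus strand: cacagcctattgaaCTACCTCatttttgcc
LIN28B, chr6:105078813-105078842, plus strand: cccggttgcaaagtCTACCTCatgcaagta
IGF2BP1, chr17:49051062-49051091, plus strand: gtgtgcgaagtaaaCTACCTCaaggtatga
IGF2BP2, chr3:185644212-185644241, minus strand: acacacagaagaagCTACCTCaggtgtttt
IGF2BP3, chr7:23311787-23311816, minus strand: gcatttttactcaaCTACCTCaggtattca
HMGA1, chr6:34245830-34245859, plus strand: cctctgttcacaaaCTACCTCtggacagtt
HMGA2, chr12:65963299-65963328, plus strand: ccaacgttcgatttCTACCTCagcagcagt

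Coordinates are on GRCh38. The match of HMGA2 begins at base 21 of its UTR and that of LIN28B at base 44, next to the stop codon, whereas the first match of IGF2BP1 begins at base 1632. An A follows the 7 letters at 3 of the 4 sites of IGF2BP1, at 2 of 4 in LIN28B, at 1 of 4 in HMGA2 and at 0 of 1 in HMGA1. A match in these letters is a description of the sequence and not evidence of binding.

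**Figure D1:**
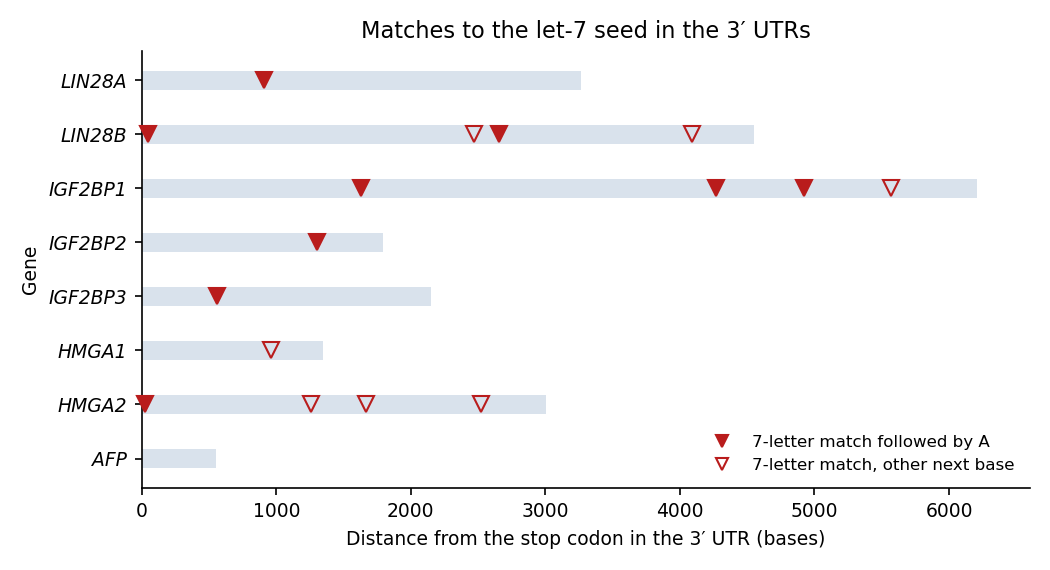
Map of the 3′ UTRs of the 8 genes, with the distance from the stop codon in bases on the x axis and 1 gray bar per gene. Triangles mark the 7-letter matches to the let-7 seed, filled where an A follows, and LIN28B, IGF2BP1 and HMGA2 carry 4 each while AFP carries 0.

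The LIN28 genes were not detectable at this depth. LIN28A (chr1:26410778-26429722) and LIN28B (chr6:104936616-105083332) had 0 counts in all 4 libraries, which allows up to about 3 counts, or 0.171 to 0.233 CPM, in a library at one-sided 95% confidence. The antisense transcript LIN28B-AS1 was likewise at 0 in each library. AFP (chr4:73431138-73456174) had 0 and 5 counts in PBS replicates 1 and 2 against 0 and 3 in the rIL-17B replicates. The highest value, in PBS replicate 2, was 0.388 CPM (exact 95% Poisson interval 0.126 to 0.905), and the value in rIL-17B replicate 2 was 0.171 CPM, at the floor. AFP was listed in 1 library of each group, the groups overlapped, and no fold change is given for these 3 genes. Intervals and floors cover counting error only.

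The remaining 5 genes were expressed in every library. Compared per kilobase of annotated exons with PBS, HMGA1 was the highest at 124 ± 3.36 CPM per kb (SD, n = 2), a level above that of 99.18% and 99.25% of the listed genes in the PBS libraries. IGF2BP2 followed at 13.7 ± 1.05 CPM per kb, then IGF2BP3 at 5.22 ± 0.0408 and IGF2BP1 at 5.21 ± 0.145 CPM per kb, and HMGA2 was the lowest at 0.926 ± 0.0127 CPM per kb (SD, n = 2 for each). The neighbors IGF2BP3 and IGF2BP1 did not differ beyond their spread, and the other steps were larger than the SD of either neighbor. Per kilobase of the longest transcript, IGF2BP3 (10.5 CPM per kb) stood above IGF2BP1 (5.73 CPM per kb), so that their order depends on which exons are counted. With rIL-17B the means were 141 ± 21.4 CPM per kb for HMGA1, 8.08 ± 5.04 for IGF2BP2, 7.196 ± 2.47 for IGF2BP1, 5.76 ± 0.853 for IGF2BP3 and 0.785 ± 0.193 CPM per kb for HMGA2 (SD, n = 2). The step between IGF2BP2 and IGF2BP1 was smaller than the SD of either, and that between IGF2BP1 and IGF2BP3 was smaller than the SD of IGF2BP1. The order also differed between the rIL-17B libraries. Replicate 1 had IGF2BP1 (8.95 CPM per kb) above IGF2BP3 (6.37) and IGF2BP2 (4.52). Replicate 2 had IGF2BP2 (11.6 CPM per kb) above IGF2BP1 (5.45) and IGF2BP3 (5.16).

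**Figure D2:**
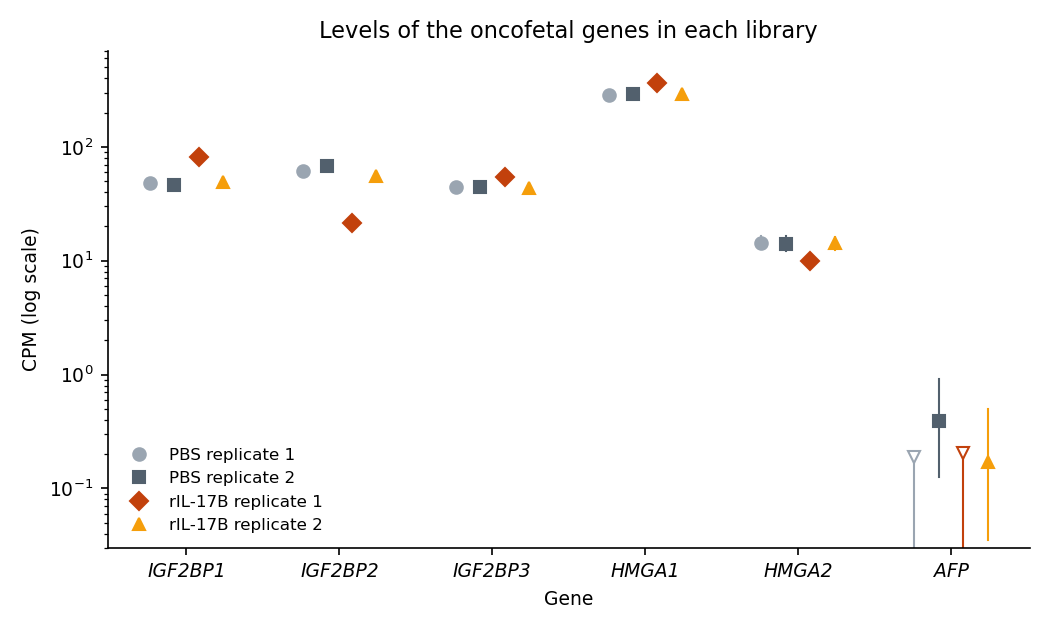
CPM on a log axis for the 6 genes with a count, 1 symbol per library, with exact 95% Poisson intervals as vertical lines where they exceed the symbol. Open triangles mark the floor of 3 counts in libraries with 0 counts of AFP, and in rIL-17B replicate 1 IGF2BP1 was at 81.5 CPM and IGF2BP2 at 21.4 CPM, away from the other libraries.

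The 3 IGF2BP paralogs differed from PBS in opposite directions in rIL-17B replicate 1 and little in replicate 2, and 0 of them passed the test. IGF2BP1 (chr17:48997412-49055650), which stabilizes mRNAs such as MYC, had 769 and 599 counts in the PBS libraries and 1191 and 871 in the rIL-17B libraries. These counts gave 48.4 and 46.5 CPM with PBS against 81.5 and 49.6 CPM with rIL-17B. Both rIL-17B libraries were above both PBS libraries, replicate 1 far and replicate 2 slightly. The log2 fold change was 0.38 (SE 0.24, adjusted p = 0.661 in the quasi-likelihood F test of edgeR, Benjamini-Hochberg adjusted over all tested genes).

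IGF2BP2 (chr3:185643739-185825056), a paralog studied for its part in metabolism and in glioma stem cells, had 979 and 884 counts in the PBS libraries and 313 and 968 in the rIL-17B libraries. In CPM the values were 61.6 and 68.6 with PBS and 21.4 and 55.1 with rIL-17B. Both rIL-17B libraries were below both PBS libraries, and replicate 1 was lowest by far. The log2 fold change was -0.80 (SE 0.55, adjusted p = 0.661 in the edgeR test), the most negative among the 5 genes.

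IGF2BP3 (chr7:23310209-23470467), a paralog often found in aggressive carcinomas, had 44.2 and 44.7 CPM with PBS against 54.2 and 43.9 CPM with rIL-17B. The groups overlapped, since rIL-17B replicate 1 was the highest library and replicate 2 the lowest. Its log2 fold change was 0.07 (SE 0.11, adjusted p = 0.768 in the edgeR test). IGF2BP3 overlaps MALSU1 on the other strand, which had between 352 and 588 counts, and without knowledge of strand use in the counting the reads of the overlap cannot be told apart. The annotated genes that overlap IGF2BP1 and IGF2BP2 had between 0 and 14 counts.

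Within each library, the paralogs can be set against each other without any scaling between libraries. IGF2BP1 over IGF2BP2 was a count ratio of 0.785 (95% interval 0.714 to 0.864) and 0.678 (0.610 to 0.753) with PBS. With rIL-17B the ratio was 3.81 (3.36 to 4.32) in replicate 1 and 0.900 (0.820 to 0.987) in replicate 2. IGF2BP2 thus had the most counts of the family in 3 libraries and the fewest in rIL-17B replicate 1, where IGF2BP1 took 51.9% (exact 95% binomial interval 49.8 to 53.9) of the family counts and IGF2BP2 13.6% (12.3 to 15.1). In PBS replicates 1 and 2 the shares of IGF2BP1 were 31.4% and 29.1% and those of IGF2BP2 39.9% and 42.9%, and in rIL-17B replicate 2 they were 33.4% and 37.1%. IGF2BP3 took between 28.0% and 34.5%. These counts are not scaled by gene length. Per kilobase of annotated exons, IGF2BP2 took 55.3% and 58.3% with PBS, and 22.8% and 52.3% in rIL-17B replicates 1 and 2. IGF2BP1 took 22.6% and 20.5% with PBS, and 45.1% and 24.5% in rIL-17B replicates 1 and 2. The ratio of IGF2BP1 over IGF2BP2 was then 0.408 and 0.352 with PBS, and 1.98 and 0.468 with rIL-17B. The summed level of the family differed little, at 154 and 159.8 CPM with PBS against 157 and 149 CPM with rIL-17B. Summed per kilobase it was 23.5 and 24.8 CPM per kb with PBS and 19.8 and 22.3 CPM per kb with rIL-17B, lower in both rIL-17B libraries.

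**Figure D3:**
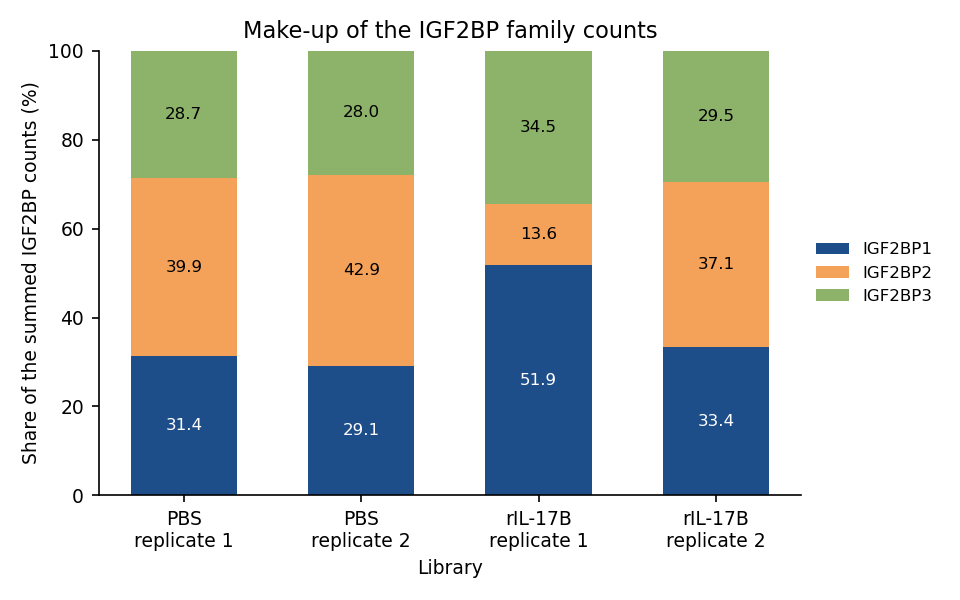
Share (%) of the summed counts of the 3 IGF2BP genes that each gene took, 1 stacked bar per library, with the shares written in the bars. Counts are not scaled by gene length. IGF2BP1 took 51.9% and IGF2BP2 13.6% in rIL-17B replicate 1, whereas in the other 3 libraries IGF2BP2 took between 37.1% and 42.9%.

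Of the 2 chromatin genes, HMGA1 was higher and HMGA2 lower in rIL-17B replicate 1 than in the other libraries. HMGA1 (chr6:34236873-34246231) had 4506 and 3794 counts in the PBS libraries and 5317 and 5153 in the rIL-17B libraries. In CPM these were 283 and 294 with PBS and 364 and 294 with rIL-17B, so that replicate 2 lay between the PBS libraries and the groups overlapped. The log2 fold change was 0.11 (SE 0.12, adjusted p = 0.699 in the edgeR test). The processed copies HMGA1P2, HMGA1P3, HMGA1P4 and HMGA1P8 had between 0 and 11 counts, and reads shared with them could be split.

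HMGA2 (chr12:65824131-65966295), a textbook let-7 target, had 229 and 182 counts in the PBS libraries and 146 and 249 in the rIL-17B libraries. The levels were 14.4 and 14.1 CPM with PBS against 9.99 and 14.2 CPM with rIL-17B. Replicate 1 was the lowest library, replicate 2 lay between the PBS libraries, and the groups overlapped. The log2 fold change was -0.30 (SE 0.29, adjusted p = 0.675 in the edgeR test). RPSAP52, a transcript antisense to HMGA2, had 9 and 11 counts in the PBS libraries and 3 and 4 in the rIL-17B libraries, below the level for testing. The count ratio of HMGA1 over HMGA2 was 19.7 (17.2 to 22.6) and 20.8 (17.96 to 24.3) with PBS, 36.4 (30.9 to 43.2) in rIL-17B replicate 1 and 20.7 (18.2 to 23.6) in replicate 2. These counts are not scaled by gene length. Per kilobase of annotated exons, the ratio was 130 and 138 with PBS, 241 in rIL-17B replicate 1 and 137 in replicate 2.

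Across the 5 tested genes, 0 passed an adjusted p of 0.05 between rIL-17B and PBS, as did 0 of 16361 genes (0%) in the edgeR test. An unadjusted p under 0.05 was found for 0 of the 5 genes, against 1.38% of all tested genes. 1 of the 5 (IGF2BP1) had both rIL-17B libraries above both PBS libraries, against 31.5% of all tested genes, and 1 of 5 (IGF2BP2) had both below, against 27.5%. With 2 libraries per group, the smallest two-sided p of exact permutation is 0.333, and none is given.

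Set against both PBS libraries together, rIL-17B replicate 1 had a CPM ratio of 1.72 (95% counting interval 1.59 to 1.86) for IGF2BP1, a ratio larger than that of 90.0% of tested genes. The ratio for IGF2BP2 was 0.331 (0.293 to 0.373), and 16.1% of tested genes had a lower one. The ratios were 1.22 (1.12 to 1.33) for IGF2BP3, 1.26 (1.22 to 1.31) for HMGA1 and 0.700 (0.575 to 0.847) for HMGA2, so that the counting interval of each of the 5 genes lay off 1, as it did for 72.8% of all tested genes. At a limit of 1.5-fold, 1 of 5 was above the PBS mean in replicate 1, against 19.2% of all tested genes, and 1 of 5 was below, against 26.1%. In rIL-17B replicate 2 the interval lay off 1 for 1 of the 5 genes, IGF2BP2, at 0.852 (0.788 to 0.921), against 34.1% of all tested genes. The others were at 1.04 (0.958 to 1.14) for IGF2BP1, 0.989 (0.903 to 1.08) for IGF2BP3, 1.02 (0.983 to 1.05) for HMGA1 and 0.994 (0.845 to 1.17) for HMGA2. No gene of the 5 passed the 1.5-fold limit in replicate 2, against 2.34% of all tested genes above it and 7.01% below. The PBS libraries also differed from each other for IGF2BP2, with a ratio of 1.11 (1.02 to 1.22) of replicate 2 over replicate 1. These ratios compare libraries, not conditions.

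**Figure D4:**
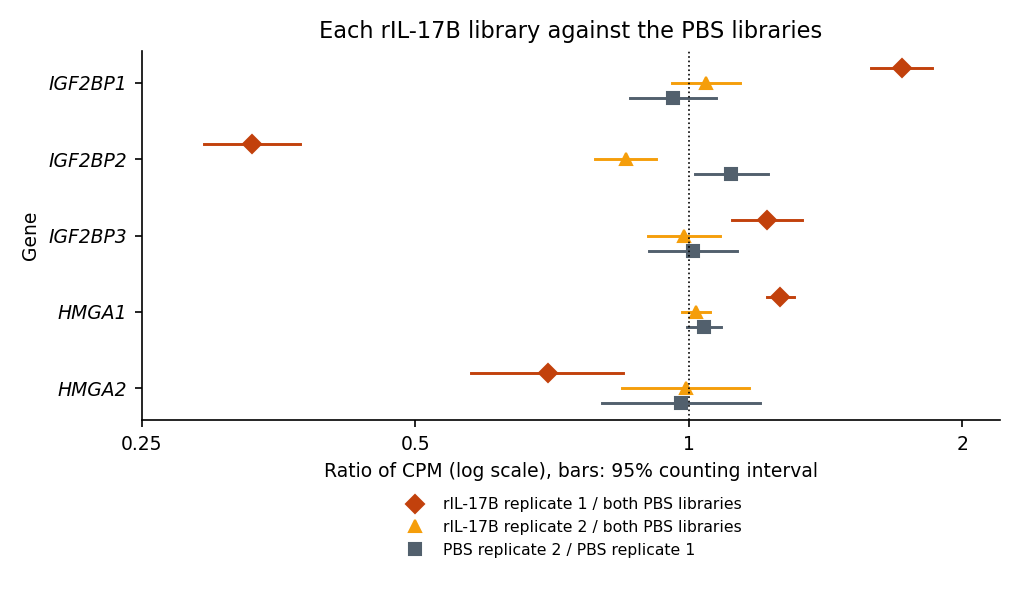
Ratio of CPM on a log axis for each of the 5 tested genes, with 95% counting intervals as bars. rIL-17B replicate 1 (diamonds) ranges from 0.331 for IGF2BP2 to 1.72 for IGF2BP1, whereas rIL-17B replicate 2 (triangles) and the ratio between the PBS libraries (squares) lie between 0.852 and 1.11.

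The size of these differences rested largely on 1 library. Without rIL-17B replicate 1, the log2 fold change was 0.06 for IGF2BP1, -0.24 for IGF2BP2, -0.02 for IGF2BP3, 0.02 for HMGA1 and -0.01 for HMGA2. In that fit 0 of the 5 genes passed (2.95% of 17103 genes did), with IGF2BP2 nearest at an adjusted p of 0.241 in the edgeR test and an unadjusted p of 0.0212. Without rIL-17B replicate 2, 4 of the 5 genes passed, and so did 55.1% of 17223 genes. IGF2BP1 was then at a log2 fold change of 0.64 (edgeR adjusted p = 2.22e-09), IGF2BP2 at -1.74 (edgeR adjusted p = 2.22e-43), HMGA1 at 0.20 (edgeR adjusted p = 0.0299) and HMGA2 at -0.65 (edgeR adjusted p = 0.00155), while IGF2BP3, at 0.15, did not pass (edgeR adjusted p = 0.253). Each of these fits leaves 1 library with rIL-17B, which is assumed to vary like the PBS libraries.

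The machinery that makes and uses let-7 was expressed in all libraries. Of 16 tested genes for let-7 processing and decay, 0 passed, 10 had a log2 fold change above 0 and 6 below, with a median of 0.05, while over all tested genes 7753 were above and 8608 below with a median of -0.03. DROSHA, the nuclease that cuts primary miRNAs in the nucleus, had 160.1 and 158 CPM with PBS against 311 and 188 CPM with rIL-17B (log2 fold change 0.56, edgeR adjusted p = 0.661, and 0.24 without rIL-17B replicate 1). TNRC6C, with the largest absolute change of the list, had 13.4 and 19.4 CPM with PBS against 8.01 and 13.4 CPM with rIL-17B. Its log2 fold change was -0.67 (edgeR adjusted p = 0.661), and -0.28 without rIL-17B replicate 1. TRIM71, an oncofetal partner of LIN28 and itself a let-7 target, had between 0 and 9 counts and was not tested. Mature miRNAs carry no poly(A) tail and were not measured in these oligo-dT libraries, but some transcripts that host them were. Of 8 hosts in the list, 5 were tested, 0 passed and the median was -0.09. MIRLET7A1HG and MIRLET7IHG had no listed count in any library, and MIRLET7DHG had between 0 and 1. MIR100HG, which hosts a let-7a locus, had 98.8 and 94.0 CPM with PBS against 14.4 and 88.0 CPM with rIL-17B, and MIRLET7BHG, which hosts let-7b, had 12.5 and 16.1 against 7.46 and 12.2 CPM. MIR99AHG, the host of let-7c, had 5.41 and 5.04 against 7.53 and 6.61 CPM. Both rIL-17B libraries were thus below both PBS libraries for MIR100HG and MIRLET7BHG and above them for MIR99AHG, with none past the threshold. Of all tested genes, 27.5% were below and 31.5% above in the same way. The reference holds 3 loci of let-7a. The groups overlapped for WDR82, the host of let-7g, with 118 and 127 CPM against 121 and 120.5 CPM, and for HUWE1, the host of miR-98, with 498 and 564 against 784 and 553 CPM. With rIL-17B replicate 1 left out, the medians were 0.0048 for processing and decay and -0.03 for the hosts.

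Of 17 tested let-7 target mRNAs outside the 8 genes, 0 passed, 12 were above 0 and 5 below, and the median log2 fold change was 0.16. The insulin-like growth factor receptor gene IGF1R had 216.6 and 216.6 CPM with PBS against 439 and 262 CPM with rIL-17B (log2 fold change 0.61, edgeR adjusted p = 0.661). The transcription factor gene MYC had 202 and 214 CPM against 332 and 225 CPM. The cyclin gene CCND2 went the other way, with 49.9 and 67.4 CPM with PBS against 0.616 and 38.7 CPM with rIL-17B. Both rIL-17B libraries lay on 1 side of both PBS libraries for these 3 genes, as they did above PBS for 31.5% and below PBS for 27.5% of all tested genes. Without rIL-17B replicate 1, the log2 fold change was 0.27 for IGF1R and -0.60 for CCND2, and the list median was 0.01. Over all tested genes, those with a 7-letter match in the 3′ UTR had a median log2 fold change of -0.05 and those without one of -0.02. With the 8-letter match the order turned, at -0.023 with and -0.028 without, and in rIL-17B replicate 2 alone the 7-letter medians of the log2 ratio to PBS were -0.00998 and 0.000504.

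The IGF2BP proteins read m6A and work with other RNA-binding proteins. Of 17 writers, erasers and readers of m6A, 0 passed, 13 were above 0 and 4 below, with a median of 0.12. The reader gene HNRNPA2B1 had 983 and 964 CPM with PBS against 1425 and 1067 CPM with rIL-17B (log2 fold change 0.28, edgeR adjusted p = 0.661, and 0.13 without rIL-17B replicate 1). The 8 partner genes gave 0 past the threshold, 7 above 0 and 1 below, with a median of 0.20. Among them YBX1, a cold-shock protein gene, had 699 and 689 CPM with PBS against 1149 and 793 CPM with rIL-17B (log2 fold change 0.40, edgeR adjusted p = 0.661, and 0.19 without rIL-17B replicate 1). Of 10 client RNAs of the IGF2BP proteins, including the noncoding H19, 0 passed, 4 were above 0 and 6 below, and the median was -0.03. Their namesake IGF2, a fetal growth factor gene, had 723 and 638 counts in the PBS libraries and 0 and 721 in the rIL-17B libraries, so that 1 library was at 0 and the other near PBS (log2 fold change -1.21, SE 2.18, edgeR adjusted p = 0.777, and -0.21 without rIL-17B replicate 1). ACTB, the beta-actin mRNA that IGF2BP1 carries in moving cells, had 3246 and 3364 CPM against 4031 and 3494 CPM. In the fit without rIL-17B replicate 1, the medians were 0.06 for the m6A genes, 0.07 for the partners and 0.03 for the clients.

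Among 10 other HMG chromatin genes, 0 passed, 10 were above 0 and 0 below, with a median log2 fold change of 0.34, and 8 of the 10 had both rIL-17B libraries above the PBS pair, where 31.5% of all tested genes did. HMGB2, a DNA-bending protein of dividing cells, had 147 and 125 CPM with PBS against 272 and 169 CPM with rIL-17B (log2 fold change 0.61, SE 0.25, edgeR adjusted p = 0.661). HMGN2, a nucleosome-binding protein, had 195 and 188 against 296 and 224 CPM. Without rIL-17B replicate 1, the log2 fold change of HMGB2 was 0.31. Of 7 tested partners and targets of HMGA2, 0 passed, 3 were above 0 and 4 below, with a median of -0.05. The cyclin gene CCNA2 had 73.6 and 64.9 CPM with PBS against 128 and 84.6 CPM with rIL-17B, and SNAI2, a regulator of epithelial-mesenchymal transition, had 42.8 and 36.8 against 12.8 and 33.2 CPM. Without rIL-17B replicate 1 the medians were 0.16 for the other HMG genes and -0.0047 for the partners and targets of HMGA2.

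Like AFP, the albumin family genes ALB, AFM and GC were at or near 0. Of 17 albumin family and fetal liver genes, 6 were tested and 0 passed, 2 being above 0 and 4 below with a median of -0.53. The tested genes were APOB, TF, SERPINA1, FOXA1 and the AFP repressors ZBTB20 and ZHX2, so that the median holds no albumin family gene. TF (0.692 and 0.776 CPM with PBS) and SERPINA1 (1.19 and 1.47 CPM) had 0 counts in rIL-17B replicate 1. FOXA1 had 2.83 and 1.94 CPM with PBS against 5.68 and 3.53 CPM with rIL-17B. ALB had 3 and 0 counts with PBS and 0 and 3 with rIL-17B, and the liver factor HNF4A had 0 and 0 against 5 and 3. AFM had 4 and 0 counts with PBS and 0 and 0 with rIL-17B, and GC had 0 in each library. The apolipoprotein gene APOB had 8.05 and 8.15 CPM with PBS against 0 and 8.15 CPM with rIL-17B (edgeR adjusted p = 0.802). Of the AFP repressors, ZHX2 had 14.02 and 16.2 CPM with PBS against 14.8 and 15.4 CPM with rIL-17B, with overlapping groups. ZBTB20 had 7.67 and 9.08 against 11.1 and 9.57 CPM, both rIL-17B libraries being above PBS, and did not pass. Of 13 other oncofetal genes, 9 were tested and 0 passed, 4 being above 0 and 5 below, with a median of -0.11. PEG10, an imprinted placental gene, had 623 and 607 CPM with PBS against 1208 and 728 CPM with rIL-17B (log2 fold change 0.57, edgeR adjusted p = 0.661, and 0.24 without rIL-17B replicate 1). BIRC5, the survivin gene, had 94.8 and 97.1 against 189 and 121 CPM, with a log2 fold change of 0.33 without rIL-17B replicate 1. The tumor antigen PRAME had 9.75 and 10.8 against 23.5 and 12.4 CPM. GPC3, DLK1 and CEACAM5 had between 0 and 3 counts. With rIL-17B replicate 1 left out, the medians were 0.02 for the fetal liver genes and 0.07 for the other oncofetal genes.

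**Figure D5:**
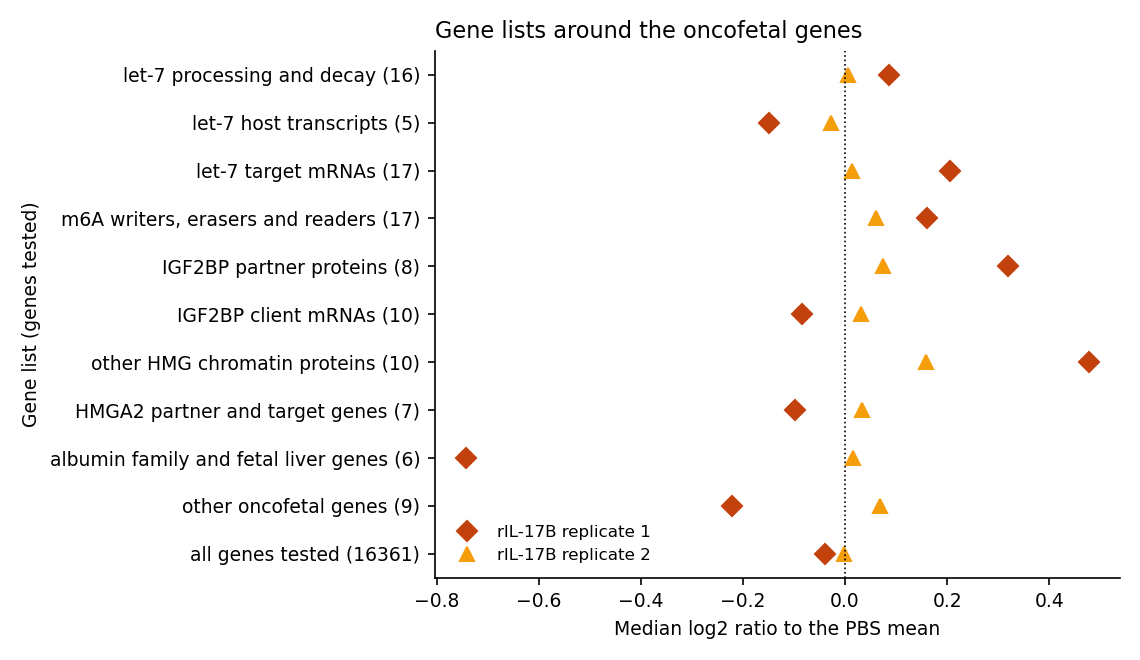
Median log2 ratio to the PBS mean of each gene list in rIL-17B replicate 1 (diamonds) and replicate 2 (triangles), with the number of tested genes in parentheses and all tested genes at the bottom. The other HMG chromatin genes were at 0.48 and 0.16, the albumin family and fetal liver genes at -0.74 and 0.02, and all genes at -0.04 and -0.0017 in replicates 1 and 2.

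The genes whose pattern lay nearest to each member were found by the distance in log2 level over the 4 libraries. For IGF2BP2 they were BTBD19 (distance 0.02) and GPR85 (0.04), and 103 genes lay within 0.2. GPR85 was low, at 1.07 and 1.24 CPM with PBS against 0 and 0.911 CPM in rIL-17B replicates 1 and 2. IGF2BP2 kept 21.4 CPM in rIL-17B replicate 1, so the small distance of GPR85 depends on the constant added to CPM before the log. For IGF2BP1 the nearest genes were HMGB1P6 (0.03) and WDR53 (0.03), with 1051 genes within 0.2, and for HMGA2 SMAD7 (0.01) and POMT1 (0.03), with 602. IGF2BP3 was nearest to DCK and TMSB10 and HMGA1 to ARMC5 and TMEM132A, with 2339 and 2526 genes within 0.2. Among the 5 genes, IGF2BP2 thus had the fewest of the 16361 tested genes within 0.2 and HMGA1 the most. IGF2BP2 also differed most from PBS in rIL-17B replicate 1, the library that stood apart. Counts at a fixed distance can depend on the size of that difference and do not show that a pattern is rare or common.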

How the data were processed

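cDNA of HGC-27 cells was primed with oligo-dT and amplified by PCR (Smart-seq2). The authors deposited counts per gene name, whole numbers without normalization, listing genes with at least 1 count. The submitters' processing notes name Bowtie2 2.2.3, HISAT2 2.1.0, TopHat2, HTSeq 0.6.0 and hg38. Their roles, the gene annotation and strand use are not given in the sources used here. Between 22 and 25 names per library that had become dates were left out, 1 entry was kept of names listed repeatedly, and a missing gene was read as 0.

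Counts were tested with edgeR 4.0.16 (R 4.3.3): TMM factors, filterByExpr and the quasi-likelihood F test, with Benjamini-Hochberg adjustment over all tested genes and a threshold of 0.05. The standard error is the log2 fold change divided by the square root of F. The step was tested on simulated data. Alternatives were DESeq2 1.42.0, upper-quartile factors, no filter, a replicate block, summed repeated names, a threshold of 0.1 and leaving out each library. Gene models and UTRs were from GENCODE 29 and miRNAs from RefSeq. All 8 genes are named. Tested genes of each hand-written list were named from its 3 highest in CPM and its 3 with the largest absolute log2 fold change. Not every gene so picked is given. For likeness the 2 nearest genes in log2(TMM CPM + 0.5) were named. Genes below the filter were named after their values were seen. A gene that this rule names is not reported here. The genes and lists were chosen with earlier results of these data known. Lists can share genes, as those holding MYC, IGF2 and H19 do. Groups came from the sample labels.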

Additional observations from a re-analysis of the deposited data

How the results depend on the processing

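In edgeR with TMM, 0 of 16361 genes and 0 of the 5 tested oncofetal genes passed, also with a threshold of 0.1 (226 genes at an unadjusted p under 0.05). The same counts were found with upper-quartile factors (190) and a replicate block (173). With repeated names summed, 0 of 16396 genes passed (227 unadjusted). Without the filter (879 unadjusted) and in DESeq2 (547 unadjusted), 0 of 31907 genes passed. There 6 of the oncofetal genes were tested, AFP included, and 0 passed. Leaving out 1 library at a time gave between 0 and 9489 genes (504 without rIL-17B replicate 1) and between 0 and 4 of the 5. It moved the log2 fold changes between 0.0604 and 0.643 for IGF2BP1, -1.74 and -0.24 for IGF2BP2, -0.0209 and 0.149 for IGF2BP3, 0.0199 and 0.197 for HMGA1 and -0.651 and -0.0125 for HMGA2, and list medians between 0.0146 and 0.209 for let-7 targets, -0.163 and 0.0379 for HMGA2 partners and -0.165 and 0.0305 for fetal liver genes. The sign of IGF2BP3 turned (-0.0209) without rIL-17B replicate 1. With the replicate block IGF2BP2 was at -0.99 and the fetal liver median at -1.25, and no call of the 5 genes changed. The labels do not say whether same-numbered libraries share more than the number. The correlation between their deviations was 0.0815 over 16361 genes. With 2 libraries per group and rIL-17B replicate 1 standing apart, this value cannot show whether they were paired. The medians were 0.091 and 0.085 for let-7 hosts and 0.595 and 0.591 for other oncofetal genes without the filter and in DESeq2, where more genes were tested.

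Scaled by TMM, the PBS levels were 45.6 CPM for IGF2BP3 and 14.6 CPM for HMGA2. Per kilobase of the longest transcript they were 5.73 (IGF2BP1), 17.6 (IGF2BP2), 10.5 (IGF2BP3), 133.8 (HMGA1) and 1.76 CPM per kb (HMGA2). The 6-letter match was found 5 times in LIN28B, 6 in IGF2BP1, 2 in IGF2BP2 and 8 in HMGA2, and the 8-letter match 2 times in LIN28B, 3 in IGF2BP1, 0 in HMGA1 and 1 in HMGA2. Of the other values, 147 kept their direction and side of the threshold or, without a test, moved by less than the SD between replicates. With 2 libraries per group and 1 standing apart, the spread limits which differences can pass, and depth limits AFP and the LIN28 genes.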
